A study of Mus musculus with 20 samples.

Results

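Integrin genes of mouse cardiac fibroblasts were followed from the uninjured heart to week 4 after myocardial infarction (MI). The set held 9 of the 25746 genes in the deposited count table, chosen by symbol: the alpha chains Itga1, Itga5, Itga8, Itga11 and Itgav, the beta chains Itgb1, Itgb3 and Itgb5, and Itgbl1. All 9 had a row and passed the filter on low counts. The members and the gene lists used below were chosen with earlier results of these data known. Their shares of calls and medians, set beside those of all genes, are therefore descriptions and not a test of the set. For chromatin, the set comprised every accessible region that overlapped the span of 1 of these genes or the 50 kb on either side of it, which gave 233 of 143246 regions. The cells were eGFP-positive cells of the Tcf21 lineage, sorted from digested hearts against a gate set on eGFP-negative wild-type cells. Tcf21 is a transcription factor gene that cardiac fibroblasts express, and the eGFP label is inherited by the progeny of cells in which a tamoxifen-inducible recombinase (MerCreMer) had acted. All groups carried the same label and the same tamoxifen course (75 mg/kg/day for 5 days), the uninjured group included. RNA-seq, from 10000 sorted cells, and ATAC-seq, which tags open chromatin with a transposase, were each run on 5 groups of 2 libraries: hearts without injury, and hearts 3 or 7 days, or 2 or 4 weeks, after MI (called day 3, day 7, week 2 and week 4). A group given a sham operation, the strain, the age of the animals and whether both libraries of a group stem from different animals are not given in the labels used here. The p-values therefore measure the spread between these libraries, which may be technical. In bulk RNA, fewer cells of a type and less RNA per cell cannot be told apart.

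Integrins are receptors of the cell surface, each made of an alpha and a beta chain, that hold cells to the extracellular matrix and join it to the actin skeleton. The beta 1 chain pairs with many alpha chains, among them the alpha 1 and alpha 11 chains, which make collagen receptors, and the alpha 5 and alpha 8 chains, which make receptors for matrix proteins with an RGD (Arg-Gly-Asp) motif. The alpha V chain pairs with several beta chains, beta 3 and beta 5 among them, binds RGD proteins such as vitronectin, fibronectin and osteopontin, and can release active TGF-beta from its latent complex. Itgbl1 encodes a protein with repeats like those in the stalk of a beta chain and no transmembrane segment, so it resembles integrin chains without being one. Cardiac fibroblasts become active and contractile after infarction and deposit the collagen and fibronectin of the scar.

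The RNA libraries held 16397211 to 21043997 estimated counts. Levels are given as CPM, each library's counts scaled to a common total with edgeR's TMM factors. They were compared between libraries and not between genes, because transcript lengths were not used here. Fibroblast markers fixed as a list of 10 genes (Tcf21, Pdgfra and collagen genes among them) summed to 66300 to 67300 CPM in uninjured libraries and to 26800 to 42600 CPM at day 3. Its members moved apart there: 4 of 10 fell, among them the actin-binding gelsolin gene Gsn (30100 and 28500 CPM against 3640 and 1050) and the proteoglycan gene Dcn (19800 and 24100 against 8760 and 5120), and the 3 collagen genes rose, Col1a1 from 903 and 415 CPM to 5890 and 3980. Of the other lists, 15 macrophage and monocyte markers summed to 76 to 90.9 CPM in uninjured libraries, 683 to 1150 at day 3, 1770 to 3220 at day 7, 520 to 549 at week 2 and 177 to 258 at week 4, and none of the 15 was at 0 in both libraries of any group. The 12 cell cycle genes summed to 13.9 to 93.1 CPM in uninjured libraries and to 1390 to 1690 CPM at day 3. Endothelial markers (12 genes) summed to 593 to 684 CPM in uninjured libraries, 262 to 335 at day 3 and 754 to 925 at day 7. Over the same groups the 10 cardiomyocyte markers summed to 172 to 210, 40.5 to 88.2 and 78.3 to 110 CPM, and the 6 erythroid markers to 4130 to 5990, 142 to 1200 and 800 to 1160. At weeks 2 and 4 the endothelial sums were 606 to 618 and 664 to 733 CPM, the cardiomyocyte sums 100 to 194 and 68.7 to 130, and the erythroid sums 1440 to 3720 and 1910 to 2320. These lists moved with the times compared below, and their part in the integrin results was not tested. Week 2 replicate 2 differed from its partner in Itga5, Itga8 and Itga11 and stood close to it in Itga1 and Itgbl1, as the values below show. Pairs of other groups differed too, among them Itga5 in uninjured libraries, Itgbl1 at day 3 and Itga11 at day 7. Week 2 replicate 2 was the RNA library whose code in the labels begins with B where those of the others begin with C. What the letter marks is not given in the labels used here.

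Every member had an accessible region at its start in all 10 ATAC-seq libraries. The share of all gene starts with such a region was not counted, so this is not read as a trait of the members. In the deposited peak lists, fold enrichment is the authors' value for a peak's height over local background, and it is printed for each list as a description, with no comparison between lists. At the start of Itgb1 the highest peak had a fold enrichment of 51.4 to 94.21 over the 10 libraries. At Itgbl1 it was 11.33 to 19.99. The promoters below are shown because Itga5 and Itga8 moved in opposite directions after MI while both starts had a peak throughout, because Itga11 gained regions beside such a start, and because Itgb1 had the most motif matches. They come from the RefSeq promoter table of GRCm38.p6, in which 8 of the 9 members had an entry (Itgb3 had none), and lie within the 250 bases before the start, written 5′ to 3′ on the strand of the gene. Bases that fall inside a listed gene span were left out. Capitals mark matches, on either strand, to the SMAD motif CAGAC or the TEAD motif GGAATG.
Itga5, chr15:103366792-103367041, minus strand: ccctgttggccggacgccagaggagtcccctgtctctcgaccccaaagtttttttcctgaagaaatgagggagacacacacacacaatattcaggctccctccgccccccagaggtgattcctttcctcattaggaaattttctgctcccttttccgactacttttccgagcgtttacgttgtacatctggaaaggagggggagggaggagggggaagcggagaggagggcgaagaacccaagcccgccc
Itga8, chr2:12301986-12302194, minus strand: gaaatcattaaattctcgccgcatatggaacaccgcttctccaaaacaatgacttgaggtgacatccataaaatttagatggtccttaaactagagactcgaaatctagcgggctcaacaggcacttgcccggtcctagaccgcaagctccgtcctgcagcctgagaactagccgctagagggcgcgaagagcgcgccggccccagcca
Itga11, chr9:62677605-62677825, plus strand: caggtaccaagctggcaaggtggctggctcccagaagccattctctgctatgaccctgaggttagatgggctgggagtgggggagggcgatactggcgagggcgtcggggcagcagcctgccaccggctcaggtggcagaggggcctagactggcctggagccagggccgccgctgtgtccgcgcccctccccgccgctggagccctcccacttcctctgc
Itgb1, chr8:128685404-128685653, plus strand: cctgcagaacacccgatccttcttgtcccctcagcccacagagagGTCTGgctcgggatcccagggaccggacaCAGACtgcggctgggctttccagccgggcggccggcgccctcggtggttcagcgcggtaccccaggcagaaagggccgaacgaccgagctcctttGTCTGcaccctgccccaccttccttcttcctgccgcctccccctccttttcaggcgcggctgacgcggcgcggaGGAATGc
Of the 8 promoters, 0 held the AP-1 motif TGANTCA, the RUNX motif TGTGGT or a CArG box, against 6.75%, 14.0% and 1.47% of 32851 promoters in the table. The TEAD motif was found only at Itgb1, in the last bases before the start, and 12.6% of all promoters held it. The SMAD motif was found at Itgb1 with 3 matches and at Itga1 with 1 match, and 42.2% of all promoters held it. A match is a description of letters and not of binding. The promoters of 7 of the 8 members were richer in G and C than the median promoter (52.4%), from 55.6% at Itga5 to 68.4% at Itga11, and Itgbl1 was below it at 42.4%.

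Among the 5 groups, 6 of the 9 members differed in edgeR's quasi-likelihood test over all genes, where 15.7% of 14968 tested genes did. These were Itgbl1 (adjusted p = 0.0014), Itgb5 (0.0058), Itga1 (0.014), Itga5 (0.022), Itga11 (0.037) and Itga8 (0.043). Itgb1 (adjusted p = 0.21), Itgb3 (0.22) and Itgav (0.41) did not pass. The calls of Itgbl1, Itgb5 and Itga1 held when any of the 10 libraries was left out. Itga5 lost its call in 4 of these fits (without day 3 replicate 1, day 3 replicate 2, day 7 replicate 2 or week 4 replicate 1), Itga8 in 6 (without either uninjured, day 3 or week 4 library) and Itga11 in 6 (without either uninjured or day 3 library, day 7 replicate 2 or week 4 replicate 1), with adjusted p of at most 0.12.

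**Figure D1:**
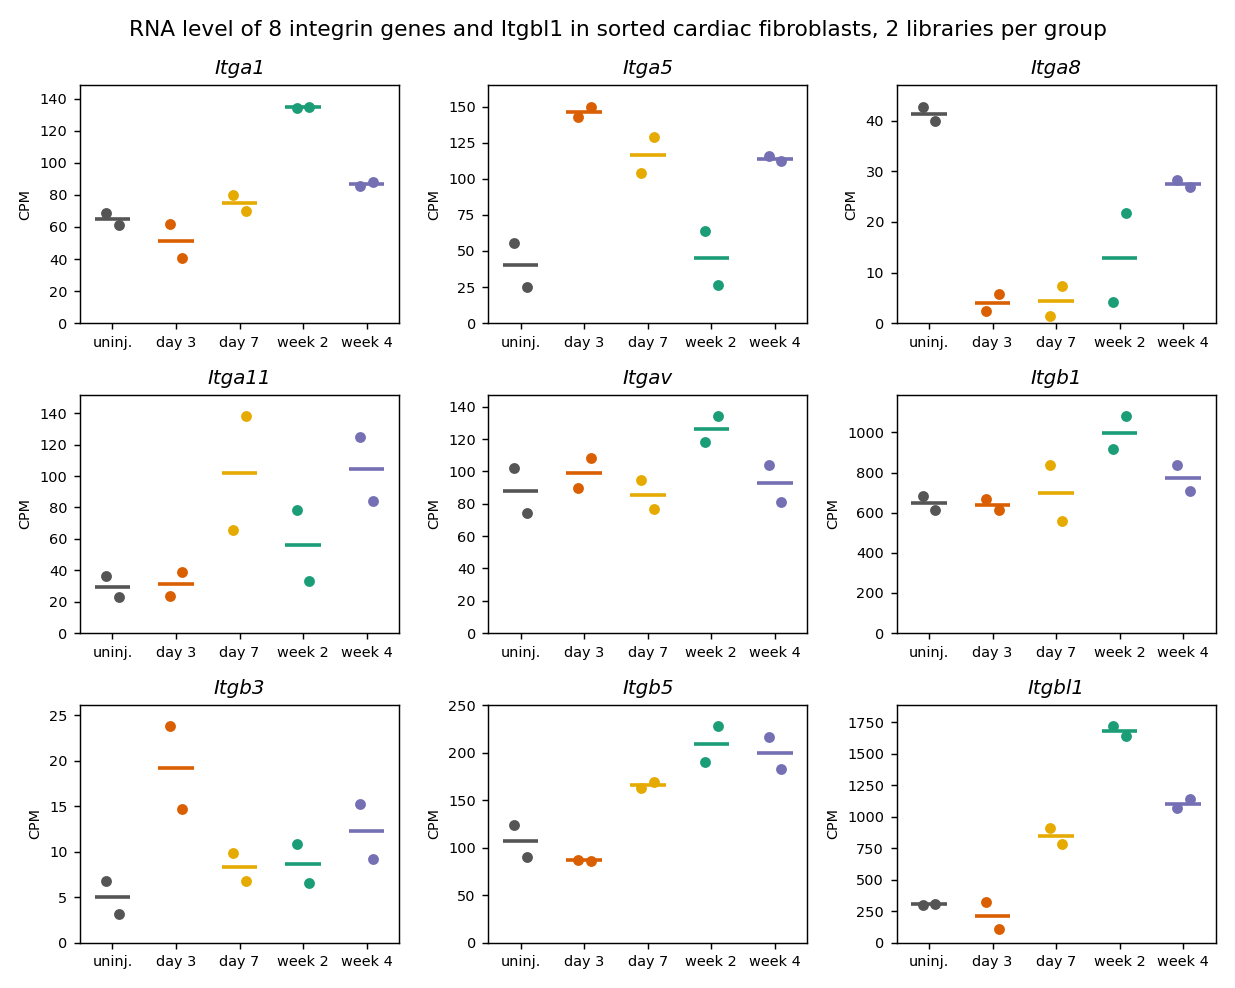
Level of each of the 9 genes in CPM (vertical axes from 0, each panel on its own scale) in the 2 libraries of each group (points) with the group mean (line). Itga5 is highest at day 3, Itga8 in uninjured hearts, and Itgbl1 at week 2, where it stands at 1720 and 1640 CPM.

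The contrasts with uninjured hearts share the same 2 control libraries, so they are not independent of each other. At day 3, 2 of 9 members passed, 1 higher and 1 lower, where 11.8% of all tested genes passed (7.39% higher and 4.4% lower). At day 7, 4 of 9 passed, 3 higher and 1 lower, where 7.15% of all genes did (4.39% higher and 2.76% lower). At week 2, 2 of 9 passed, both higher, against 1.89% of all genes (1.44% higher). At week 4, 1 of 9, Itgbl1, passed and was higher, against 2.32% of all genes (1.85% higher). The median log2 fold change of the 9 members was -0.02 at day 3, 0.63 at day 7, 0.80 at week 2 and 0.90 at week 4, and that of all tested genes was -0.02, 0, -0.01 and 0. At week 4 both libraries were above both uninjured libraries for 7 of the 9 members and below them for Itga8, a pattern that 25.6% of all tested genes showed upward and 25.6% downward. None of the 10 member calls, counting day 7 against day 3 with these contrasts, was kept in all 10 fits that left out 1 library, and none turned its direction in them.

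**Figure D2:**
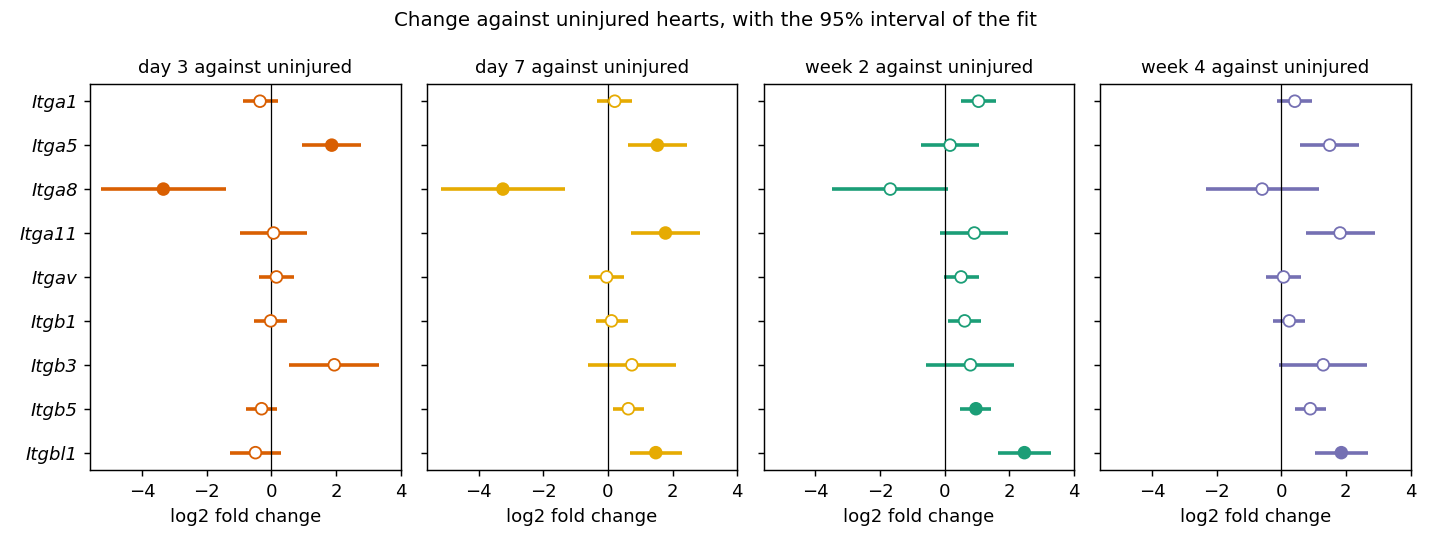
Log2 fold change of each member against uninjured hearts at the 4 times (points), with its 95% interval from the edgeR fit (lines). Filled points passed at an adjusted p of 0.05. Itga8 lies to the left of 0 at all 4 times and Itgbl1 to the right from day 7 onward.

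The collagen receptor chains followed different courses. Itga1 (ENSMUSG00000042284, chr13:114953096-115101964) stood at 68.8 and 61.4 CPM in uninjured libraries, 61.6 and 40.9 at day 3, 80.2 and 69.9 at day 7, 134 and 135 at week 2, and 85.6 and 88.1 at week 4. Both week 2 libraries lay above the other 8, and uninjured and day 3 libraries overlapped. At week 2 the mean was 135 ± 1.2 CPM (SD, n = 2) against 65.1 ± 5.19 in uninjured hearts, a log2 fold change of 1.05 ± 0.25 (SE) that did not pass in edgeR (adjusted p = 0.059) and passed in DESeq2 (adjusted p = 0.0022). No single contrast with uninjured hearts passed for Itga1, although it differed among the 5 groups. Its span overlaps Pelo and Gm49395, and its estimated counts had decimals in all 10 libraries; whether reads were divided between these genes was not tested.

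Itga11 (ENSMUSG00000032243, chr9:62677826-62783982), which encodes the collagen receptor chain typical of mesenchymal cells and of myofibroblasts, stood at 36.2 and 22.9 CPM in uninjured libraries and 23.3 and 38.9 at day 3. It reached 65.7 and 138 CPM at day 7 and 125 and 84 at week 4, with 78.4 and 33.2 at week 2. The day 7 and week 4 libraries all lay above the uninjured and day 3 libraries, and week 2 replicate 2 lay among the latter. At day 7 the gene rose by 1.78 ± 0.49 on the log2 scale (adjusted p = 0.049), a 3.44-fold change. The call was lost without either uninjured library, either day 3 library, day 7 replicate 2 or either week 4 library (adjusted p = 0.056 to 0.38). At week 4 the log2 fold change was 1.82 ± 0.49 and did not pass (adjusted p = 0.089); it passed without either week 2 library (0.041 and 0.042) and in DESeq2 (0.0073). Against day 3 the day 7 difference was 1.71 ± 0.48 (adjusted p = 0.12; 0.015 in DESeq2).

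Within a library, the ratio of the counts of Itga11 to those of Itga1 was 0.527 and 0.373 in uninjured hearts, 0.378 and 0.95 at day 3, 0.818 and 1.97 at day 7, 0.587 and 0.245 at week 2, and 1.46 and 0.954 at week 4. The day 7 and week 4 libraries lay above both uninjured libraries in this ratio, and the week 2 libraries lay on either side of them. A ratio of counts depends on transcript length, so only its course over the groups can be read.

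The RGD-binding partners of the beta 1 chain moved in opposite directions. Itga5 (ENSMUSG00000000555, chr15:103344286-103366763), the alpha chain of the main fibronectin receptor, stood at 55.7 and 24.8 CPM in uninjured libraries, 143 and 150 at day 3, and 104 and 129 at day 7. It was at 63.7 and 26.7 CPM at week 2 and at 116 and 112 at week 4. All day 3, day 7 and week 4 libraries lay above all uninjured and week 2 libraries. At day 3 the gene rose by 1.87 ± 0.42 on the log2 scale (adjusted p = 0.014, 3.64-fold), and at day 7 by 1.53 ± 0.42 (adjusted p = 0.048, 2.89-fold). At week 2 the log2 fold change was 0.17 ± 0.41 (adjusted p = 0.97), and at week 4 it was 1.5 ± 0.42 (adjusted p = 0.10), which passed without uninjured replicate 1 (0.02) or either week 2 library (0.031 each) and in DESeq2 (0.014).

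The level of Itga5 was thus lower at week 2 than at the times before and after, but the differences from them did not pass in edgeR. From day 7 to week 2 the log2 fold change was -1.36 ± 0.41 (adjusted p = 0.14; 0.032 in DESeq2) and from week 2 to week 4 it was 1.33 ± 0.41 (adjusted p = 0.15; 0.039 in DESeq2). Without week 2 replicate 1 both passed, at -2.08 (adjusted p = 0.037) and 2.06 (0.024). The day 3 call did not hold without replicate 2 of either group, uninjured (adjusted p = 0.088) or day 3 (0.087). The day 7 call was lost without uninjured replicate 2 or any day 3, day 7 or week 4 library (adjusted p = 0.073 to 0.30).

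Itga8 (ENSMUSG00000026768, chr2:12106632-12301922), whose chain binds nephronectin and other RGD ligands, had its highest level in uninjured hearts, with 42.8 and 40 CPM. It stood at 2.37 and 5.76 CPM at day 3, 1.38 and 7.36 at day 7, 4.11 and 21.8 at week 2, and 28.2 and 27 at week 4. All 8 libraries after MI lay below both uninjured libraries, and the week 4 libraries lay above all other libraries after MI. The smallest of its counts was 28 in 1 library, so the low values still rest on counts above 0. At day 3 the gene fell by 3.34 on the log2 scale (SE 0.88, adjusted p = 0.031, 10.1-fold lower), and at day 7 it fell by 3.25 (SE 0.88, adjusted p = 0.048, 9.51-fold lower).

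Itga8 had a log2 fold change of -1.68 ± 0.82 at week 2 (adjusted p = 0.52) and of -0.59 ± 0.80 at week 4 (adjusted p = 0.86), and from day 7 to week 4 it differed by 2.66 ± 0.86 (adjusted p = 0.13; 0.021 in DESeq2). The day 3 call was lost without either uninjured, day 3 or week 4 library (adjusted p = 0.055 to 0.17), and the day 7 call without either uninjured, day 3 or week 4 library or day 7 replicate 1 (0.061 to 0.15). Counts of Itga8 had decimals in 7 of 10 libraries, and its span overlaps Gm37701. Pericyte and smooth muscle markers, a list of 10 genes from cells that can also express Itga8, summed to 391 to 898 CPM in uninjured libraries, 95.1 to 165 at day 3, 588 to 871 at day 7, 445 to 1180 at week 2 and 357 to 523 at week 4, and none of the 10 was at 0 in both libraries of any group. The pericyte gene Rgs5 made up much of these sums, with 737 and 282 CPM in uninjured libraries, 106 and 35.9 at day 3 and 469 and 662 at day 7. Kcnj8, a potassium channel gene of pericytes, stood at 35.8 and 34.7 CPM in uninjured libraries, 6.29 and 2.27 at day 3, 16.1 and 25.7 at day 7, 12.2 and 5.63 at week 2, and 8.91 and 13.5 at week 4, and its partner Abcc9 had a mean of 29.3 CPM in uninjured hearts, 7.57 at day 3, 13.3 at day 7, 10.2 at week 2 and 6.8 at week 4. The list's median log2 fold change against uninjured hearts was -1.03 at day 3, 0.71 at day 7, 0.41 at week 2 and 0.33 at week 4. Kcnj8 and Abcc9, which stayed below their uninjured levels, thus did not follow the list's median from day 7 onward. The part of these cells in the Itga8 result was not tested.

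The ratio of Itga5 to Itga8 counts was 1.3 and 0.619 in the uninjured libraries. It was 60.2 and 26.1 at day 3, 75.2 and 17.5 at day 7, 15.5 and 1.23 at week 2, and 4.14 and 4.13 at week 4. Only week 2 replicate 2 came within the uninjured range; the other 7 libraries after MI lay above it.

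**Figure D3:**
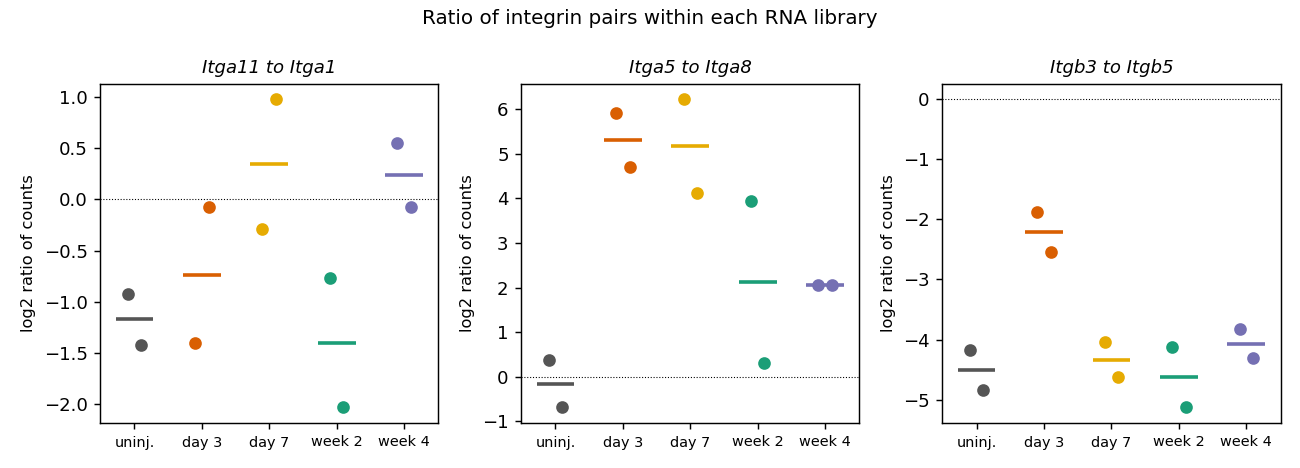
Log2 ratio of the counts of 3 pairs of members within each RNA library (points) with the group mean (line); the dotted line marks equal counts. The ratio of Itga5 to Itga8 is 4.13 to 6.23 at days 3 and 7 and -0.69 to 0.38 in uninjured libraries, and that of Itgb3 to Itgb5 is highest at day 3.

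For the alpha V chain and the shared beta 1 chain no contrast with uninjured hearts passed in edgeR or DESeq2. Itgav (ENSMUSG00000027087, chr2:83724397-83806916) stood at 102 and 74.1 CPM in uninjured libraries, 89.5 and 108 at day 3, 94.8 and 76.6 at day 7, 118 and 134 at week 2, and 104 and 81.3 at week 4. Its highest group mean was 1.47 times its lowest. The 95% interval of its log2 fold change against uninjured hearts ran from -0.38 to 0.71 at day 3, -0.59 to 0.51 at day 7, -0.03 to 1.06 at week 2 and -0.48 to 0.61 at week 4. Its counts had decimals in all 10 libraries.

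Itgb1 (ENSMUSG00000025809, chr8:128685654-128733200) stood at 682 and 615 CPM in uninjured libraries, 669 and 611 at day 3, 840 and 561 at day 7, 917 and 1080 at week 2, and 836 and 706 at week 4. Both week 2 libraries lay above the other 8, as they did for Itga1, Itgav and Itgbl1. The share of all genes with this pattern was not counted, so it is not read as a trait of the members. The week 2 log2 fold change against uninjured hearts was 0.62 ± 0.23 and did not pass (adjusted p = 0.29), although its 95% interval, 0.12 to 1.12, lay above 0; it was a 1.54-fold difference. The interval ran from -0.52 to 0.48 at day 3, -0.38 to 0.61 at day 7 and -0.25 to 0.75 at week 4.

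The beta partners of the alpha V chain had their highest levels at different times. Itgb3 (ENSMUSG00000020689, chr11:104608000-104670476), whose chain also forms the fibrinogen receptor of platelets, stood at 6.82 and 3.16 CPM in uninjured libraries and at 23.8 and 14.7 at day 3. It was at 9.89 and 6.81 CPM at day 7, 10.9 and 6.53 at week 2, and 15.3 and 9.26 at week 4. Both day 3 and both week 4 libraries lay above the uninjured ones, and the day 7 and week 2 groups overlapped them. The day 3 log2 fold change was 1.95 ± 0.64 and did not pass in edgeR (adjusted p = 0.07), though it passed in DESeq2 (0.014). Platelet markers, a list of 8 genes, summed to 5.22 to 14 CPM in uninjured libraries and 56.5 to 58.1 at day 3, of which Pf4, a chemokine of platelets that macrophages can also express, made up 45 and 55.7 CPM. Of the other 7, Gp9 and Treml1 stood at 0 in both day 3 libraries and Gp1bb at 0 and 0.166 CPM. Ppbp stood at 5.64 and 0 CPM there (0.693 and 0.59 in uninjured libraries), Gp1ba at 2.37 and 0 (0 and 0.214), and Gp6 (3.44 and 0) and Gp5 (0 and 2.33) were at 0 in both uninjured libraries. Itga2b, the platelet partner chain of Itgb3, stood at 1.39 and 1.23 CPM in uninjured libraries and at 0.712 and 4.43 at day 3. It was at 1.18 and 0.603 CPM at day 7, 1.89 and 6.36 at week 2, and 5.38 and 5.89 at week 4. The part of platelets in the Itgb3 values was not tested.

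Itgb5 (ENSMUSG00000022817, chr16:33829665-33949338) stood at 124 and 90.3 CPM in uninjured libraries, 87.4 and 86 at day 3, 163 and 169 at day 7, 190 and 228 at week 2, and 217 and 183 at week 4. All libraries from day 7 onward lay above all uninjured and day 3 libraries. The gene rose by 0.97 ± 0.22 on the log2 scale at week 2 (adjusted p = 0.048, 1.95-fold). That call was kept only when week 2 replicate 1 was left out and was lost without any of the other 9 libraries (adjusted p = 0.056 to 0.54). The week 4 log2 fold change was 0.90 ± 0.22 (adjusted p = 0.058), which passed without either week 2 library (0.046 each). The day 7 difference from day 3 was 0.93 ± 0.22 (adjusted p = 0.065; 0.0049 in DESeq2). Counts of Itgb5 had decimals in 5 of 10 libraries.

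The ratio of Itgb3 to Itgb5 counts was 0.0551 and 0.035 in uninjured libraries and 0.272 and 0.172 at day 3. In the 6 later libraries it was 0.0286 to 0.0705. The day 3 libraries thus lay above all the others, and at day 3 Itgb3 had its highest and Itgb5 its lowest group mean.

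Itgbl1 (ENSMUSG00000032925, chr14:123659971-123975618) had the widest range of the 9 members after Itga8, with its highest group mean 7.74 times its lowest. It stood at 301 and 309 CPM in uninjured libraries, 322 and 112 at day 3, 915 and 789 at day 7, 1720 and 1640 at week 2, and 1070 and 1140 at week 4. Day 7, week 4 and week 2 followed each other upward without overlap, and each lay above all uninjured and day 3 libraries. At day 7 the gene rose by 1.48 ± 0.37 on the log2 scale (adjusted p = 0.031, 2.80-fold). At week 2 it rose by 2.47 ± 0.38 (adjusted p = 0.0051, 5.52-fold), and at week 4 by 1.86 ± 0.37 (adjusted p = 0.024, 3.63-fold).

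Itgbl1 also rose between day 3 and day 7, by 1.97 ± 0.37 (adjusted p = 0.027), in a contrast where 1 of 9 members and 1.38% of all tested genes passed. At day 3 its log2 fold change against uninjured hearts was -0.49 ± 0.36 (adjusted p = 0.44), and the 2 day 3 libraries disagreed: without day 3 replicate 1 it was -1.45 (adjusted p = 0.0038). The week 2 call was lost without uninjured replicate 1 (adjusted p = 0.059) or 2 (0.086), and the week 4 call without either uninjured or week 4 library (0.11 to 0.25). The day 7 call was lost without any uninjured, day 7, week 2 or week 4 library (0.053 to 0.23). The rise from day 3 was lost without day 3 replicate 2, either day 7 library, week 2 replicate 1 or week 4 replicate 2 (0.05 to 0.12).

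In the later contrasts edgeR called 0 of 9 members. From day 7 to week 2, where 0.648% of all tested genes passed, 5 members had an unadjusted p under 0.05 and DESeq2 called 2. From week 2 to week 4, where 0.608% passed, these numbers were 2 and 1. From day 7 to week 4, where 2.42% passed, they were 1 and 1. Of the 14968 tested genes, 2416, 2214 and 2586 had an unadjusted p under 0.05 in edgeR in these contrasts, in the same order. DESeq2 called 1057, 920 and 1312 genes in them.

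The genes whose course over the 10 RNA libraries was most like that of a member were found by Pearson's r of log2 CPM among 7104 well-expressed genes, as a description without a test, since neighbouring values share a library and its depth. For Itgb5 they were Lmcd1 (r = 0.977), Ltbp3 (0.974), which encodes a binding protein of latent TGF-beta, and Stc2 (0.95). For Itgbl1 they were Cpxm2 (0.968), Cst3 (0.964), which encodes the protease inhibitor cystatin C, and again Stc2 (0.962). For Itga5 they were Fscn1 (0.969), which encodes an actin-bundling protein, B4galt5 (0.961) and Smarca4 (0.961). For Itga8 they were Cdip1 (0.956), Bmyc (0.933) and Rufy1 (0.924), and for Itga11 Tnip1 (0.945), Bcar1 (0.945), which encodes the adaptor p130Cas of focal adhesions, and Tmem119 (0.925). For Itga1 they were Cpe (0.94), Kat6b (0.932) and Abi3bp (0.929). The genes most like the members that did not differ among the groups were Nexn for Itgav (0.926), Lrp6 for Itgb1 (0.913) and Fam98a for Itgb3 (0.926). Between members, the highest values were 0.93 for Itgbl1 with Itga1, 0.92 for Itgbl1 with Itgb5, and 0.84 for Itga1 with Itgb1 and with Itgb5; Itga5 went with Itgb3 (0.77).

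Integrin chains outside the set were examined in the same fit. Of 13 other alpha genes, 12 were tested, and edgeR called 0 in each contrast with uninjured hearts. At days 3 and 7 and weeks 2 and 4, 2, 2, 1 and 3 of them had an unadjusted p under 0.05, and DESeq2 called 2 (Itgam and Itga9), 1 (Itgam), 1 (Itgam) and 0. Of the 14968 tested genes, 3738, 3017, 1579 and 1905 had an unadjusted p under 0.05 in edgeR at these times. Over all genes edgeR called 11.8%, 7.15%, 1.89% and 2.32%, and DESeq2 called 2856, 2000, 803 and 860 genes. Beside these shares, 0 calls among 12 genes are not read as a trait of the list. Several of these chains also stood at low levels, and those not called are not shown to be unchanged. Of 6 other beta genes, 4 were tested, and Itgb2, the beta chain of leukocyte integrins, was the only one called. Itgb2 stood at 2.88 and 1.55 CPM in uninjured libraries, 19.7 and 26.9 at day 3, 37.6 and 25.4 at day 7, 21.6 and 4.16 at week 2, and 4.27 and 2.29 at week 4. At day 3 it rose by 3.39 ± 0.75 on the log2 scale (adjusted p = 0.012), and at day 7 by 3.82 ± 0.77 (0.011), and it fell by 3.26 from day 7 to week 4 (SE 0.74, adjusted p = 0.041). The day 3 call did not hold without replicate 2 of the uninjured (adjusted p = 0.091) or day 3 group (0.053), the day 7 call without uninjured replicate 2 (0.082), and the later fall without any of its 4 libraries (0.09 to 0.22). Its partner Itgam, an alpha chain of myeloid cells, was at 0 in both uninjured libraries and at 3.98 and 8.7 CPM at day 3. The sums of macrophage markers given above had the same order over the groups as the group means of Itgb2. Within week 2 they did not go together: the sums were 520 to 549 CPM where Itgb2 stood at 21.6 and 4.16. The part of macrophages in the Itgb2 values was not tested.

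Genes of integrin ligands changed in both directions. Of 30 matrix genes fixed as a list of integrin ligands, all tested, 11 rose and 4 fell at day 3, 16 rose and 1 fell at day 7, 12 rose and 1 fell at week 2, and 15 rose and 1 fell at week 4. Of all tested genes 7.39%, 4.39%, 1.44% and 1.85% rose at these times. The median log2 fold change of the list was 0.43, 1.59, 1.12 and 1.25, beside -0.02, 0, -0.01 and 0 over all genes. Fn1, the fibronectin gene and ligand of the Itga5 receptor, stood at 175 and 124 CPM in uninjured libraries and at 1530 and 1510 at week 2, where it rose by 3.35 ± 0.24 (adjusted p = 1.8e-05). At week 2 both Fn1 libraries thus lay above both uninjured libraries, while those of Itga5 overlapped them. Spp1, which encodes osteopontin, a ligand of alpha V integrins, rose by 5.60 ± 0.34 at day 3 (adjusted p = 3.1e-06), from 33.6 and 22 CPM to 1000 and 1690. Vtn, which encodes vitronectin, fell by 3.47 at day 3 (SE 0.53, adjusted p = 0.0016), from 40.4 and 28.7 CPM to 2.67 and 3.55. Tnc (tenascin C, 7.90 ± 0.64, adjusted p = 0.00015) and Postn (periostin, 3.91 ± 0.34, 6.1e-05) also rose at day 3, and the laminin chain gene Lama2 fell by 1.82 (SE 0.36, 0.0071). Among collagen genes Col1a1, a ligand of the receptors with the alpha 1 and alpha 11 chains, rose by 3.22 ± 0.44 at week 4 (adjusted p = 0.0035). Lamb1, the gene of another laminin chain, fell by 1.78 at week 2 (SE 0.27, adjusted p = 0.004).

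Genes of focal adhesions, the sites where integrins join actin, also changed. Of 30 listed, 29 were tested: 9 rose and 2 fell at day 3, 7 rose and 1 fell at day 7, 3 rose at week 2, and 7 rose at week 4. Calls were more often higher than lower over all genes too (7.39% and 4.4% at day 3, 4.39% and 2.76% at day 7), and 1.44% and 1.85% rose at weeks 2 and 4. The list's median log2 fold change was 0.57, 0.64, 0.17 and 0.90 at the 4 times. Actn1 (alpha-actinin 1, an actin crosslinker) stood at 35 and 23.4 CPM in uninjured libraries and at 101 to 214 in the 8 libraries after MI. It rose by 2.32 ± 0.30 at day 3, 2.49 ± 0.30 at day 7, 2.26 ± 0.30 at week 2 and 2.76 ± 0.30 at week 4 (adjusted p = 0.00065, 0.00046, 0.0017 and 0.00072). Tns3, a tensin that binds beta chains, rose by 2.28 ± 0.34 at day 7, 2.35 ± 0.34 at week 2 and 2.47 ± 0.34 at week 4 (adjusted p = 0.0017, 0.003 and 0.0029). Lims2 (PINCH2, a partner of integrin-linked kinase) fell by 3.51 at day 3 (SE 0.58, adjusted p = 0.0038). The kindlin genes moved apart at day 7: Fermt3, the kindlin of blood cells, rose by 4.35 ± 0.95 (adjusted p = 0.017) from 1.6 and 0.429 CPM, beside the rise in macrophage markers, and Fermt2, the kindlin of fibroblasts, fell by 0.92 (SE 0.23, adjusted p = 0.031). The Fermt3 call did not hold without replicate 2 of the uninjured (adjusted p = 0.14) or day 7 group (0.13), and the Fermt2 call without either uninjured or day 7 library (0.083 to 0.16).

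The chromatin around the members was examined through peaks called in each library. The 10 lists held 63882 to 107774 peaks, fewest in an uninjured library and most at day 3, and the member windows held 123 to 179 of them. Peaks that overlapped by 1 base or more were merged over the lists into regions. Of the 233 regions in the windows, 76 (32.6%) had a peak in all 10 libraries, where 27.2% of all regions did, and 57 (24.5%) had a peak in 1 library only, where 26% did. Itgb5 had the most regions (50), then Itga11 (37), Itga1 (28), Itgav (26), Itgb3 (24), Itgb1 (21), Itga8 (16), Itgbl1 (16) and Itga5 (15). These counts are not scaled to window length, which was shortest for Itga5 (122.5 kb) and longest for Itgbl1 (415.6 kb) and Itga8 (295.3 kb). At Itga5, 1 merged region of 20511 bases covers its start and most of the gene. Only 92 of the 233 regions were nearer to the start of their own member than to that of another listed gene. The 24 regions of Itgb3 could not be among them, because its start was not in the promoter table used for this count. A region in a window is thus not thereby assigned to the member.

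A region was counted as gained at a time when both libraries of that time and neither uninjured library had a peak there, and as lost in the reverse case; with 2 libraries against 2 no exact test can pass, since its smallest p is 0.333. In the member windows 32 regions (13.73%) were gained and 2 (0.86%) lost at day 3, where 17.2% and 1.09% of all regions were. At day 7 the windows had 21 gained (9.01%) and 2 lost (0.86%), against 9.28% and 2.37% of all regions. At week 2 they had 13 gained (5.58%) and 3 lost (1.29%), against 5.08% and 2.66%, and at week 4 they had 6 gained (2.58%) and 7 lost (3.0%), against 2.76% and 3.68%. The gained shares from day 7 onward were thus close to those over all regions, and that at day 3 was lower. The gained share was largest at day 3, where the peak lists were longest, and the part of list length in it was not tested.

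**Figure D4:**
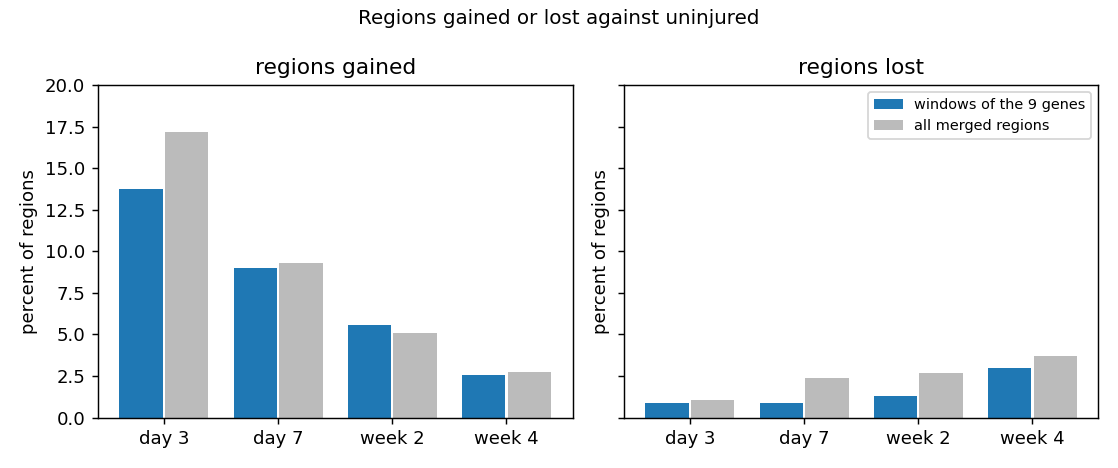
Percent of merged regions gained (left) or lost (right) against uninjured hearts at each time, in the windows of the 9 members (blue) and over all 143246 regions (grey). The gained share falls from 13.73% at day 3 to 2.58% at week 4 in the windows and from 17.2% to 2.76% over all regions.

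Single regions differed in when they had peaks. At Itga11 a region 6.7 kb into the gene (chr9:62683419-62685236) had no peak in either uninjured library and a peak in all 8 libraries after MI, with fold enrichment of 3.47 to 12.42. Another, 39.7 kb before the start (chr9:62637765-62638739) and nearer to the start of Gm39353, had a peak in 1 day 3 library and in all 6 later ones. In all, 4 regions were gained at each of the 4 times: these were named after their values were seen, and besides the one at 6.7 kb they lie 34.7 kb into Itga11 (chr9:62711620-62713365) and 44.4 and 21.7 kb into Itga1 (chr13:115056793-115058390 and chr13:115077611-115081175). The Itga1 regions are nearer to the start of Pelo, a gene nested in Itga1. The share of all regions gained at all 4 times was not counted, so this count is not read as a trait of the members.

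At Itga8 a region 13.5 kb into the gene (chr2:12288121-12288791) was the only one in the windows lost at all 4 times, with fold enrichment of 4.37 and 4.38 in the uninjured lists. A second Itga8 region, 7.8 kb into the gene (chr2:12293647-12294990), had a peak in both uninjured and both day 3 libraries, in 1 library each at day 7 and week 2, and in none at week 4. The RNA of Itga8 was lowest at days 3 and 7 and higher at week 4, so the peaks of the second region and the RNA did not follow the same order over the groups. Both regions are nearer to the start of E030013I19Rik than to that of Itga8. The share of all regions lost at all 4 times was not counted either.

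**Figure D5:**
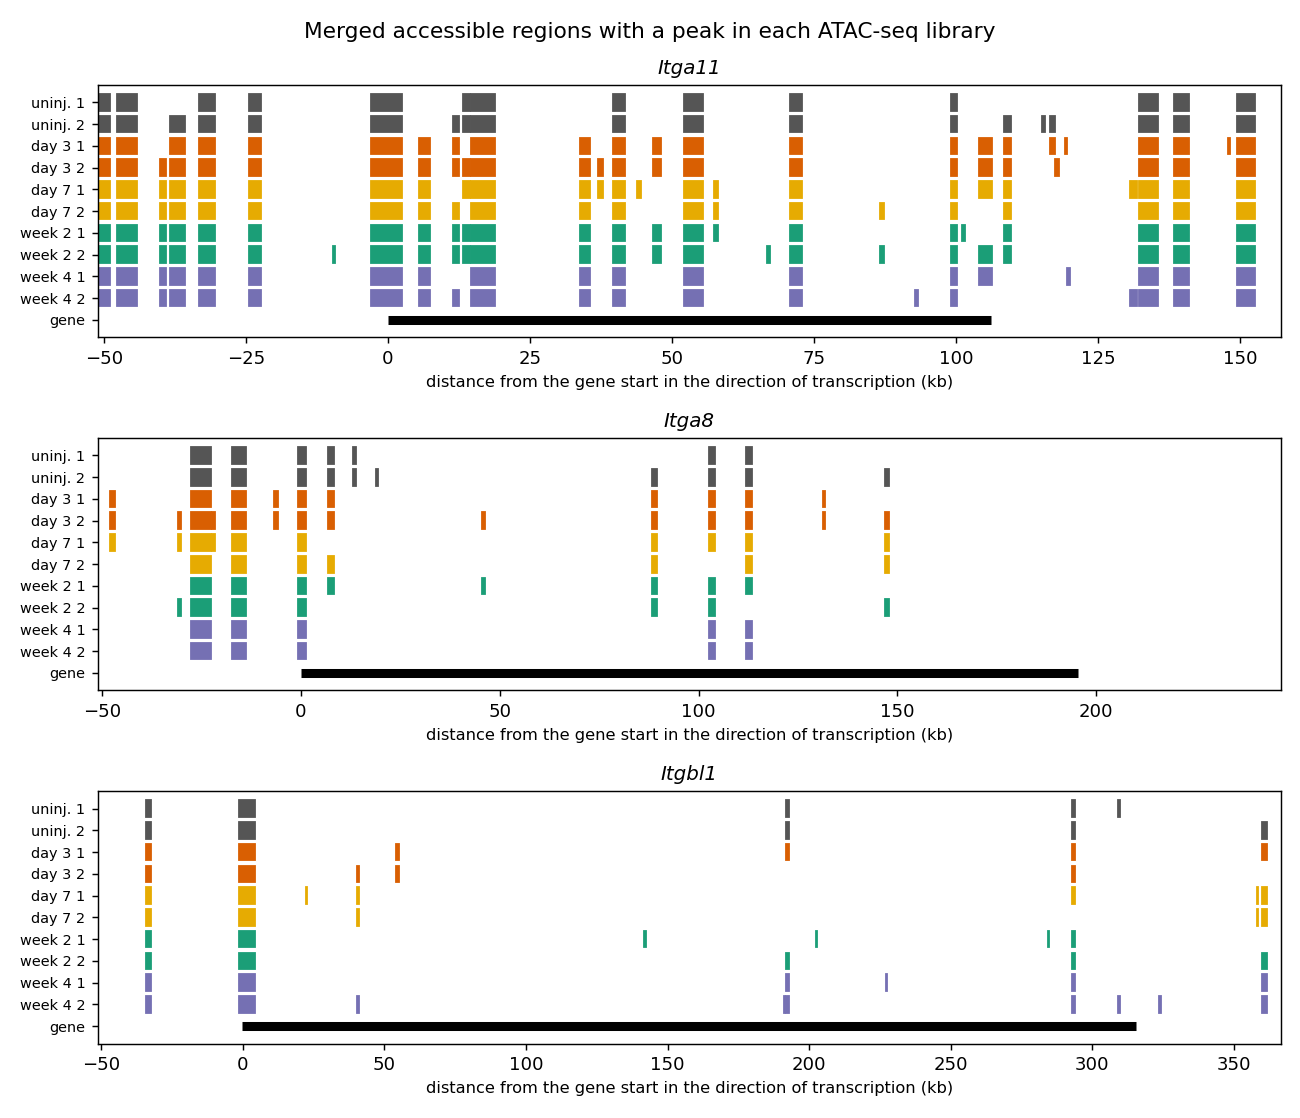
Merged regions around Itga11, Itga8 and Itgbl1, drawn in the row of each ATAC-seq library that had a peak there, against the distance in kb from the gene start in the direction of transcription (each bar has the width of the merged region, not of that library's peak; black bar, gene span). Itga11 has 2 regions inside the gene that are absent in both uninjured rows and present in the 8 rows after MI, and Itga8 has 1 region present in the uninjured rows only.

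Some regions before a gene start had peaks in both libraries at days 3 and 7 and in neither uninjured library. The region 23.7 kb before Itgav (chr2:83699452-83701678) had fold enrichment of 16.55 and 15.71 at day 3, 5.64 and 6.46 at day 7, 4.31 and 2.66 at week 2, and no peak in uninjured or week 4 libraries. The region 18.9 kb before Itgb1 (chr8:128666217-128667588) had peaks at day 3 (10.8 and 13.87) and day 7 (2.95 and 4.22) only. The region 26.7 kb before Itga5 (chr15:103392682-103394514) had peaks at day 3 (14.63 and 22.64) and day 7 (5.9 and 8.94), and in 1 library each at week 2 and week 4. RNA of Itga5 rose at days 3 and 7, and RNA of Itgav and Itgb1 passed no test there. The Itga5 region is nearer to the start of Gm52195 than to that of Itga5.

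At Itgb3 a region 33.3 kb into the gene (chr11:104638823-104641946), measured from its lower-coordinate end because its strand was not given, had peaks in both libraries at day 3 (9.84 and 11.83) and day 7 (3.76 and 3.97) only. At Itgb5 a region 40.4 kb into the gene (chr16:33869261-33870401) was gained at day 3 and week 2, and another at 33.7 kb (chr16:33862529-33864002) at week 4 only. At Itgbl1 1 region, 54.9 kb into the gene (chr14:123714405-123715182), was gained at day 3 and 1 of 358.2 kb distance, inside Fgf14, at day 7; a region 192.9 kb into the gene (chr14:123851885-123853135) was lost at day 7. No Itgbl1 region was gained at week 2, when its RNA was highest, and the peak at its start was present in all 10 libraries.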

How the data were processed

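Integrin genes were examined in 10 RNA-seq and 10 ATAC-seq libraries of sorted mouse cardiac fibroblasts, 2 per group, grouped by their labels, and 0 columns of per-sample counts had no sample. The members and gene lists were chosen with earlier results of these data known. The deposited RNA table holds an estimated count (expected count) per gene, with decimals in some genes and unequal totals. Itga5, Itga11, Itgb1, Itgb3 and Itgbl1 had whole numbers in all 10 libraries, which scaling between libraries would be unlikely to leave. The counts were therefore taken as not scaled. Not given in the sources used here are the estimating program, the strand counted and the peak-calling settings. Per the submitters' processing notes, the tools were Trim Galore 0.6, FastQC, STAR 2.5.3a, DESeq2, Bowtie2 2.3 and MACS2, with the builds mm10 and GRCm38. Each deposited ATAC-seq file is 1 library's narrowPeak list, which by its format gives the authors' fold enrichment (a ratio), the −log10 of p and q, and a score per peak.

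Counts were rounded and fitted in R 4.3.3 with edgeR 4.0.16: TMM scaling, filterByExpr by group (14968 genes kept of 25746; 7472 had no count), a robust quasi-likelihood model of the 10 libraries by group alone, leaving 5 residual degrees of freedom. P-values were adjusted by Benjamini-Hochberg over all genes in each of 8 contrasts, with a threshold of 0.05. Libraries held 16397211 to 21043997 counts, but counting error depends on a gene's own count. It is larger where that count is low, as for Itga8 (lowest count 28) and Itgb3 (lowest count 59). PCR copies were not told apart by molecular identifiers, and the number of libraries limits precision. The scripts were tested on simulated data. Peaks on chromosomes 1 to 19 and X were merged over the 10 lists, and windows reached 50 kb beyond each gene. All 9 gene identifiers matched the table of gene names. The 9 members were named whatever their result. Of each other list, up to 3 rising and 3 falling genes of largest change per contrast could be named, with the 3 genes most like each member, and up to 2 gained and 2 lost regions per member by mean fold enrichment. Itgam, Itga2b and some marker genes were named for their levels, and regions gained at all 4 times after their values were seen. Alternatives were DESeq2 1.42.0, other scalings, filters and region rules, and leaving out each library.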

Additional observations from a re-analysis of the deposited data

Results flagged for a closer look

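In the edgeR fit Itgbl1 was the 1 member called in the contrasts that were run between times after MI. Neither week 2 nor week 4 was compared with day 3, so whether other members differed there was not tested. The change of Itgbl1 at day 7 exceeded its change at day 3 by 1.97 on the log2 scale (SE 0.37, edgeR adjusted p = 0.027). Both day 7 libraries (915 and 789 CPM) lay above both day 3 libraries (322 and 112 CPM). The adjusted p was 0.05 to 0.12 in the 5 fits without 1 library that lost the call. DESeq2 called further members between times: Itga11 (adjusted p = 0.015) and Itgb5 (0.0049) from day 3 to day 7, Itga1 (0.021) and Itga5 (0.032) from day 7 to week 2, Itga5 (0.039) from week 2 to week 4 and Itga8 (0.021) from day 7 to week 4. No group had the 4 or more libraries needed to look for an outlying library.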

How the results depend on the processing

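No member call changed direction under any alternative. Of 16 reversed values, all of differences that had not passed, Itga11 at day 3 came to 0 with upper-quartile scaling and with no low-count filter. The others arose on leaving out 1 library, where log2 fold changes ranged from -0.37 to 0.43 for Itga11 at day 3, -0.09 to 0.40 for Itgav at day 3, -0.13 to 0.05 for Itgb1 at day 3, -1.45 to 0.06 for Itgbl1 at day 3, -0.27 to 0.21 for Itgav at day 7, -0.22 to 0.36 for Itgb1 at day 7, -0.57 to 0.87 for Itga5 at week 2, and -0.15 to 0.32 for Itgav at week 4.

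The number of members called moved at day 7 against uninjured to 1 with only the 2 groups fitted. At week 2 it moved to 1 with upper-quartile scaling, robust fitting off or only the 2 groups, and to 4 with no filter. At week 4 it moved to 4 with no filter or DESeq2 and to 2 with only the 2 groups. From day 3 to day 7 it moved to 2 (upper quartile), 3 (no filter, DESeq2) and 0 (only the 2 groups). From day 7 to week 2 it was 2 with no filter and with DESeq2, and 1 with each from week 2 to week 4 and from day 7 to week 4. Leaving out 1 library gave 0 to 2 calls at day 3, 0 to 3 at day 7, 0 to 2 at week 2, 0 to 4 at week 4 (4 without either week 2 library), 0 to 2 from day 3 to day 7, 0 to 1 from day 7 to week 2, 0 to 1 from week 2 to week 4, and 3 to 6 among the 5 groups.

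Libraries with the same replicate number did not deviate together (r of -0.02 to 0.03 in 10 pairs of groups), so the numbers were not taken as pairs. With a replicate block the count of calls was 3 at day 3 (Itgb3 added, adjusted p = 0.042), 3 at day 7 (Itga11 lost, 0.068), 1 at week 2 (Itgb5 lost, 0.051), 1 from day 7 to week 4 (Itga8, log2 fold change 3.08, 0.044) and 5 among the 5 groups (Itga11 lost, 0.06); the other counts did not move.

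Over all genes, DESeq2 called 2856 genes at day 3 (edgeR 1764). With DESeq2, no filter and only the 2 groups, counts were 2000, 1846 and 635 at day 7 (1070 as reported), 803, 796 and 171 at week 2 (283), 860, 971 and 653 at week 4 (348), 974, 814 and 119 from day 3 to day 7 (206), 1057, 1029 and 6 from day 7 to week 2 (97), and 920, 952 and 0 from week 2 to week 4 (91; edgeR gave 1950 genes an unadjusted p under 0.05 where it called 0). With DESeq2 and no filter they were 1312 and 1306 from day 7 to week 4 (362), and 4367 and 4148 among the 5 groups (2349). With robust fitting off they were 49 from day 7 to week 2 and 45 from week 2 to week 4, and the stricter filter gave 51 from day 7 to week 2.

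Gained regions in the windows numbered 16 at day 3, 10 at day 7 and 7 at week 2 within gene spans alone, 7 at week 2 with peaks of −log10 q of 5 or more, and 10 at week 4 with summits widened by 100 bases. Lost regions numbered 11, 7 and 7 at day 3, day 7 and week 2 with widened summits, 1 at day 3 with 25% of the region covered or within gene spans, 5 at day 7 and 5 at week 2 at the stricter q, and 5 at week 2 with 100 kb flanks. Leaving out 1 library gave 34 to 59, 22 to 40, 15 to 31 and 7 to 17 gained regions and 3 to 7, 3 to 10, 5 to 10 and 7 to 16 lost ones at day 3, day 7, week 2 and week 4. The cause of these shifts was not tested. With 2 libraries a group the fit has 5 residual degrees of freedom, and differences that did not pass are not shown to be absent.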
